A study of Mus musculus with 8 samples.

Results

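The 5 transcripts described here, NONMMUT055566, NONMMUT039923, NONMMUT069403, ENSMUST00000193223 and ENSMUST00000143291, are long noncoding RNAs (lncRNAs) that the study listed among the most raised in mouse ileum after duodenal-jejunal bypass (DJB). They are read by 5 of the 90752 transcript probes on the array. They were chosen by the difference between DJB and sham on these same arrays, so that difference and everything drawn from the same contrast are given as a description, with no test. The deposited files name probes only, and each transcript was tied to its probe because the ratio of group means in the authors' log2 table equalled the ratio printed for that transcript with a relative error of no more than 1.4e-09, and every other probe missed it by 8.7e-05 or more.

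Ileal RNA came from 8 male C57BL/6 mice with a diabetic phenotype, 4 that received DJB and 4 that received a sham operation, with 1 single-colour Agilent array per mouse. All 8 had eaten a high-fat diet with 60% of its energy as fat for 12 weeks from the age of 6 weeks, were picked for that phenotype before the operation and were sampled 2 weeks after it, with 14 weeks of the diet in all. DJB was made with a biliopancreatic limb of 5 cm and a Roux limb of 4 cm, and sham mice underwent laparotomy without cutting or rerouting of the bowel. No mouse without the diet was on these arrays. All sham arrays lay on 1 slide and all DJB arrays on another, so slide and operation cannot be told apart. The tissue label is ileum whereas the extraction text of the labels names the duodenum, and because the files name no genes the tissue was not checked against its markers.

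In DJB the stomach empties into a limb of jejunum, and bile and pancreatic juice join the food only further down, so the ileum stays in place but receives other contents. The ileum is the last stretch of small intestine and is known for taking up bile acids. A lncRNA is a long transcript with no protein product, and some of them regulate genes near their own site or elsewhere in the genome. Identifiers starting with NONMMUT are those of the NONCODE catalogue of mouse noncoding RNAs, and those starting with ENSMUST are Ensembl transcripts. ENSMUST00000193223 belongs to the gene Gm38066 and ENSMUST00000143291 to Gm11752, both placeholder symbols for predicted genes. No role is stated here for any of the 5.

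The study's list placed NONMMUT055566 on chromosome 6, NONMMUT039923 on chromosome 2, NONMMUT069403 on chromosome 9, ENSMUST00000193223 on chromosome 3 and ENSMUST00000143291 on chromosome 11. Start, end, exon structure and genome build were not analysed here. The 5 probe sequences, each of 60 bases, are shown because they are what the array measured of each transcript, 5′ to 3′ as the scanner files give them, followed by the single other probe that shares 25 or more bases with any of them. Capitals in the first and last mark a run of 57 bases that both probes hold, and capitals in NONMMUT069403 mark 19 bases that a qRT-PCR primer of the study also covers.
NONMMUT055566 (probe MOUSELNCRNA_26667): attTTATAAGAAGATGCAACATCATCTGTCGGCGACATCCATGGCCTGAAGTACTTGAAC
NONMMUT039923 (probe MOUSELNCRNA_87292): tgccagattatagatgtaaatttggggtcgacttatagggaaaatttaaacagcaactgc
NONMMUT069403 (probe MOUSELNCRNA_84709): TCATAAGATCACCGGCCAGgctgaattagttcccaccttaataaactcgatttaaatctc
ENSMUST00000193223 (probe MOUSELNCRNA_73893): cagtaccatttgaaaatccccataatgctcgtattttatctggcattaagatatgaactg
ENSMUST00000143291 (probe MOUSELNCRNA_66765): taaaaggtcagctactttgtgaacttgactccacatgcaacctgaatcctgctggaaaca
No transcript assigned (probe MOUSELNCRNA_32000): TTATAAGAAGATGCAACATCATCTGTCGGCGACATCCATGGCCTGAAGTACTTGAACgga

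Bases 4 to 60 of the NONMMUT055566 probe are bases 1 to 57 of MOUSELNCRNA_32000, so these probes read nearly the same stretch and are not independent measurements. Any pair of the 5 lncRNA probes shared a run of no more than 5 to 8 bases, so none of them reads another's stretch. ENSMUST00000143291 shared 17 bases with a further probe, MOUSELNCRNA_23768, short of the 25 set here. Of the 5 probes, that of ENSMUST00000193223 had the fewest G and C bases, 35.0%, and that of ENSMUST00000143291 the most, 43.3%, against a median of 41.7% over all transcript probes. At each probe's own GC content the median difference between DJB and sham over all tested probes lay between 0.02 and 0.10 on the log2 scale. No RefSeq promoter window (GRCm39) was printed, because neither Gm38066 nor Gm11752 has an entry in the table used.

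Levels are given as relative log2 signal, the log2 of the background-subtracted intensity minus the 75th percentile of all transcript probes on that array, so that 0 is the level of a fairly bright probe and each unit is a doubling. The brightness of a probe depends on its sequence, and levels of different probes are therefore not ranked. A probe was called higher when limma gave an adjusted p (Benjamini-Hochberg) under 0.05 and the groups differed 2-fold or more. That call was met by 830 of 64408 tested probes, 1.29%, and by all 5 lncRNAs, which follows from how they were chosen. In each of the 5 the lowest DJB mouse lay above the highest sham mouse, as it did in 22.1% of tested probes. Their differences between DJB and sham ran from 3.11 to 4.80 on the log2 scale with a median of 3.75, against a median of 0.08 over all tested probes. In bulk ileum a change in the number of cells of a type and a change in RNA per cell cannot be told apart.

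**Figure D1:**
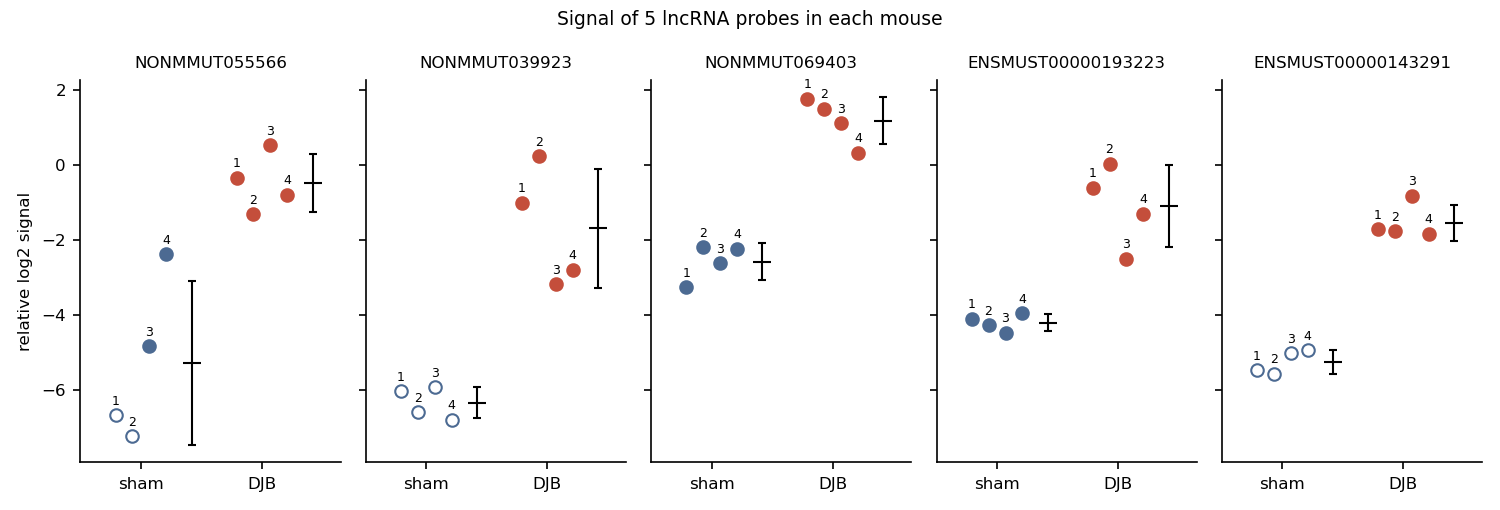
Relative log2 signal (vertical axis) of the 5 lncRNA probes in 4 sham and 4 DJB mice, numbered by replicate, with filled points well above background, open points not, and a bar for the mean ± SD. No sham point reached the lowest DJB point of the same lncRNA, and the sham mice of NONMMUT055566 spread from -7.24 to -2.38.

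NONMMUT055566 was the most uneven of the 5 in sham mice. Its relative log2 signal was -6.68, -7.24, -4.84 and -2.38 in sham-1 to sham-4. In DJB-1 to DJB-4 it was -0.34, -1.32, 0.53 and -0.80. Sham-3 and sham-4 were well above background and sham-1 and sham-2 were not, so the transcript was detected in 2 of 4 sham mice and in all DJB mice. The group means were -5.29 ± 2.19 and -0.48 ± 0.79 (SD, n = 4 each), and the difference was 4.80 (standard error 0.97). The gap between the highest sham mouse and the lowest DJB mouse was 1.05, the narrowest of the 5. Only 8 of 64408 tested probes had a larger SD among sham mice. Without sham-4 the difference was 5.77 and without sham-2 it was 4.15. With both undetected sham mice set to the lowest detected signal of their own arrays it was 4.43, and as the log2 ratio of linear group means, which sham-4 weighs on most, it was 3.72. No single fold change is therefore given for this transcript.

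Sham-4 was also an array on which the duplicate spots of this probe disagreed, as they did on sham-1. Each probe but that of ENSMUST00000193223 was printed at 2 places, and the spots of NONMMUT055566 read 147.6 and 48.5 units of processed intensity on sham-4, 1.61 apart on the log2 scale. A gap of that size or more was seen in 0.74% of 60620 tested probes on that array, where the median was 0.11. The gap on sham-1 was -1.42, a size reached or passed in 0.778% of 60617 tested probes. There the first spot, 2.46, lay among the negative control probes, which reached 4.42, and the second, 6.58, lay above all of them. On the DJB arrays they were close, with 259.8 and 293.7, 122.2 and 154.6, 472.0 and 514.8, and 181.2 and 219.8 in DJB-1 to DJB-4. Both sham-4 spots lay above both sham-3 spots, 14.1 and 14.8.

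The overlapping probe MOUSELNCRNA_32000 gave the same order of mice. Its relative log2 signal was -5.45, -5.61, -4.50 and -2.83 in sham-1 to sham-4 and -0.03, -1.10, 0.80 and -0.46 in DJB-1 to DJB-4. Sham-4 was again highest and sham-2 lowest among sham mice, and DJB-3 highest and DJB-2 lowest among DJB mice. The means were -4.60 ± 1.28 and -0.20 ± 0.80 (SD, n = 4 each) and the difference 4.40 (standard error 0.63). It was well above background on all sham arrays, but on sham-1 and sham-2 only through its second spot. That spot read 24.6 and 22.6 on sham-1 and sham-2, where the first read 3.64 and 3.33, a gap of -2.76 on the log2 scale on both arrays. Detection of this stretch in sham-1 and sham-2 thus rested on 1 of the 4 spots of both probes. On sham-4 its spots read 56.5 and 67.3, close to the lower of the NONMMUT055566 spots.

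**Figure D2:**
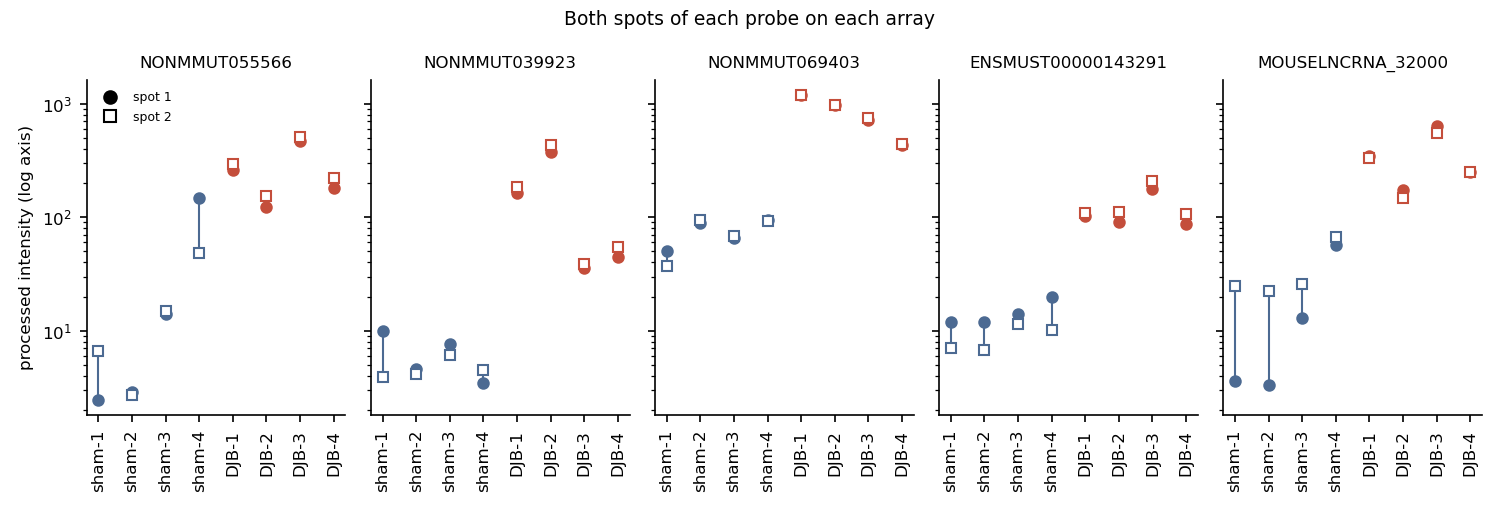
Processed intensity (vertical log axis) of the first (filled circle) and second (open square) spot of each probe printed at 2 places, on 4 sham (blue) and 4 DJB (red) arrays, with a line joining the spots. Spots lie close together on all DJB arrays and part on some sham arrays, by 1.61 on the log2 scale for NONMMUT055566 on sham-4 and by 2.76 for the overlapping probe on sham-1 and sham-2.

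NONMMUT039923 was not detected in any sham mouse. Its relative log2 signal was -6.04, -6.60, -5.93 and -6.80 in sham-1 to sham-4, with none well above background. In DJB-1 to DJB-4 it was -1.01, 0.23, -3.19 and -2.80, all well above background. DJB-2 and DJB-1 were high and DJB-4 and DJB-3 low, and the groups were 2.74 apart at their closest. The means were -6.34 ± 0.42 and -1.69 ± 1.59 (SD, n = 4 each), and only 48 tested probes varied more among DJB mice. The measured difference was 4.65 (standard error 0.69). Because the probe was well above background on no sham array, the level in DJB mice is given as 20.3-fold higher, as an approximate limit. For it each sham array enters with the lowest signal of any probe well above background on it. The probe's measured value enters instead if that is larger. It is not a strict minimum. On sham-1 this probe, at -6.04, exceeded that lowest signal, -6.30, and was still not well above background. Without DJB-2 this limit was 13-fold, and at the first and second spot alone it was 16.5-fold and 23.3-fold.

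Sham spots of NONMMUT039923 ran from 3.46 to 9.99 in intensity, and the negative controls reached at most 3.1 to 4.45 on the sham arrays. All but the first spot on sham-4 and the second on sham-1 lay above every negative control of their array. None was marked as well above background. The weakest DJB array, DJB-3, read 35.9 and 39.1. The strongest, DJB-2, read 378.1 and 429.4. The DJB mice thus spanned more than the gap between DJB-3 and the highest sham mouse, 3.42 against 2.74 on the log2 scale.

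NONMMUT069403 was detected in every mouse. Sham-1 to sham-4 had a relative log2 signal of -3.26, -2.20, -2.63 and -2.23. In DJB-1 to DJB-4 it was 1.77, 1.5, 1.11 and 0.33. The groups were 2.53 apart at their closest, with sham-1 lowest and DJB-1 highest. The means were -2.58 ± 0.49 and 1.18 ± 0.63 (SD, n = 4 each), and the difference of 3.75 (standard error 0.34) is a fold change of 13.5. Sham spots read 37.3 to 95.2 and DJB spots 431.9 to 1189.7, and on DJB arrays the spots of a mouse differed by no more than 0.07 on the log2 scale. With both groups measured, this fold change is not a bound.

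ENSMUST00000193223 (Gm38066) was likewise detected in every mouse. Its relative log2 signal was -4.11, -4.28, -4.48 and -3.96 in sham-1 to sham-4, the tightest sham group of the 5. In DJB-1 to DJB-4 it was -0.61, 0.03, -2.50 and -1.30. DJB-3 stood lowest, 1.46 above the highest sham mouse, and DJB-2 highest. The means were -4.21 ± 0.22 and -1.10 ± 1.08 (SD, n = 4 each), and the difference of 3.11 (standard error 0.46) is a fold change of 8.64. The probe was printed at 1 place, so no second spot bears on it. Its sham spots of 18.6 to 28.3 lay above every negative control, and its DJB spots ran from 60.6 to 350.7.

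ENSMUST00000143291 (Gm11752) had the widest gap between groups. Its relative log2 signal was -5.48, -5.57, -5.02 and -4.95 in sham-1 to sham-4, none of them well above background. In DJB-1 to DJB-4 it was -1.72, -1.77, -0.82 and -1.84. DJB-3 was high and the other DJB mice lay within 0.13 of each other, and the groups were 3.1 apart at their closest. The means were -5.25 ± 0.32 and -1.54 ± 0.48 (SD, n = 4 each), and the measured difference was 3.72 (standard error 0.25), with the smallest error of the 5. The measured difference is a fold change of 13.1. No sham array passed the background flag, so the sham level behind it is uncertain. Every sham value exceeded the lowest detected signal of its array, so that signal sets no lower limit here. The fold change was 9.52 at the first spot and 18.1 at the second.

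The sham spots of ENSMUST00000143291 read 6.76 to 20.0, above every negative control on their arrays, yet the scanner software marked none as well above background. In each sham mouse the first spot was the brighter, by 0.28 to 0.97 on the log2 scale, and the difference between DJB and sham was 3.25 at the first spot and 4.18 at the second. The DJB spots read 86.9 to 208.7. None of the 9 spots of the 5 lncRNAs was saturated or carried an outlier flag on any array.

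**Figure D3:**
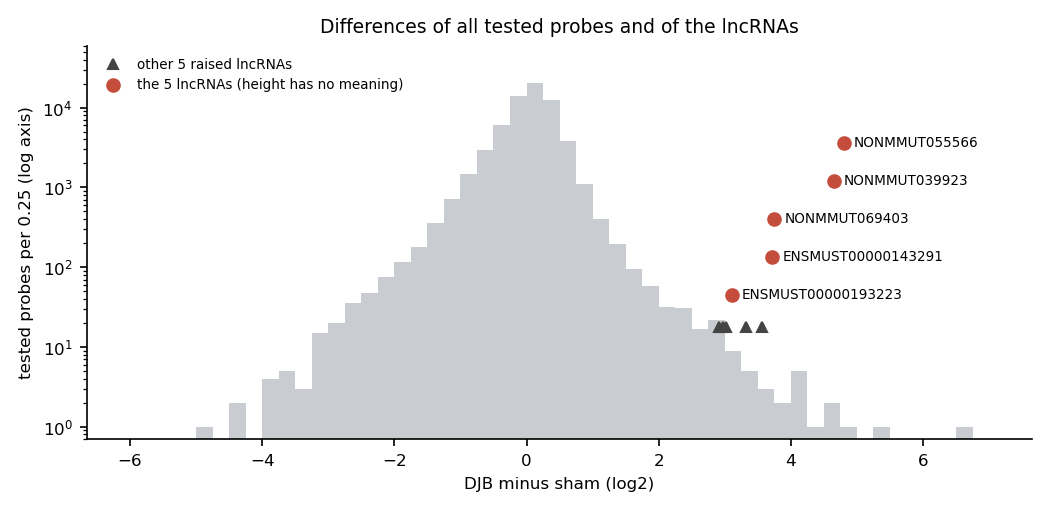
Number of tested probes (vertical log axis) by difference between DJB and sham on the log2 scale (horizontal axis), with the 5 lncRNAs as red points whose height has no meaning and the other 5 lncRNAs of the study's most raised list as triangles. The 5 lie between 3.11 and 4.80, and the median of all tested probes is 0.08.

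The other 5 lncRNAs on the study's list of the most raised were chosen on the same arrays, and NONMMUT070309 and NONMMUT017554, measured in both groups, differed by 3.56 and 2.92. NONMMUT070309 exceeded ENSMUST00000193223 (3.11), so the 5 described here are not simply the 5 largest of the 10 on this scale. NONMMUT058424 measured 3.32, but with a sham level below detection. All 5 others were called. Of them 3, NONMMUT064067, NONMMUT006278 and NONMMUT058424, passed the background flag on no sham array, as did 2 of the 5 lncRNAs described here. By the approximate limit used for NONMMUT039923, the levels of these 3 in DJB mice were 6.0-fold, 6.83-fold and 8.62-fold higher. The last, for NONMMUT058424, did not exceed the 8.64-fold of ENSMUST00000193223.

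The lncRNAs did not rank the DJB mice alike. From the highest to the lowest, the DJB mice ran 2, 1, 4, 3 for both NONMMUT039923 and ENSMUST00000193223. They ran 3, 1, 4, 2 for NONMMUT055566, 3, 1, 2, 4 for ENSMUST00000143291 and 1, 2, 3, 4 for NONMMUT069403. DJB-3 was therefore the highest mouse for NONMMUT055566 and ENSMUST00000143291 and the lowest for NONMMUT039923 and ENSMUST00000193223. Of the 6 pairs that 4 mice form, NONMMUT039923 and ENSMUST00000193223 ordered 6 the same way, and NONMMUT055566 and ENSMUST00000143291 ordered 5. NONMMUT055566 shared the order of only 1 pair with NONMMUT039923 and of 1 with ENSMUST00000193223. Each of the 2 spots of NONMMUT055566, NONMMUT039923 and NONMMUT069403 gave the order of its own mean, whereas the spots of ENSMUST00000143291 ordered DJB-1 and DJB-2 differently.

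**Figure D4:**
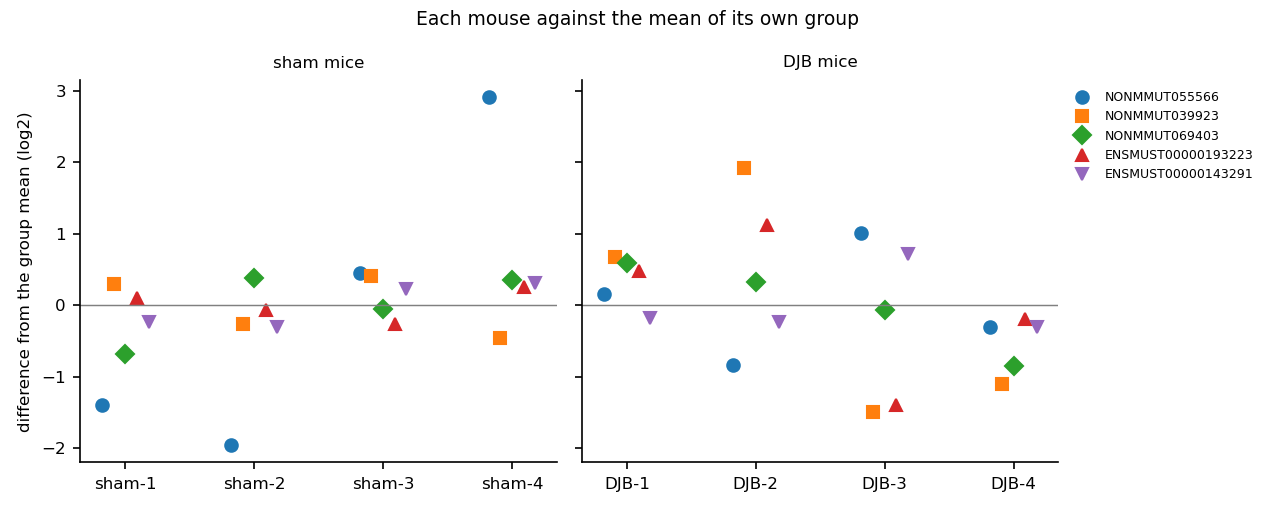
Difference of each sham mouse (left) and DJB mouse (right) from the mean of its own group, in log2 units (vertical axis), for the 5 lncRNAs by colour and shape. DJB-3 lies above the mean for NONMMUT055566 and ENSMUST00000143291 and below it by over 1 for NONMMUT039923 and ENSMUST00000193223.

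These orders were also seen among other probes. Of the 830 probes called higher, DJB-3 was the highest DJB mouse in 26.9% and the lowest in 36.3%. The order 2, 1, 4, 3 was that of 134 of them, 16.1%, the order 1, 2, 3, 4 of 6.02%, the order 3, 1, 4, 2 of 5.06% and the order 3, 1, 2, 4 of 4.46%. In sham mice both NONMMUT055566 and ENSMUST00000143291 ran 4, 3, 1, 2. There the first was below detection in sham-1 and sham-2 and the second in every mouse, and in each of them 1 spot gave another order, 4, 3, 2, 1 and 3, 4, 1, 2. NONMMUT039923 and ENSMUST00000193223, which shared the DJB order, ordered 1 of 6 sham pairs the same way, with NONMMUT039923 below detection. With 4 mice in a group and the groups apart, no correlation between lncRNAs is given.

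For each lncRNA the 3 probes with the most similar pattern were taken by the root mean square (RMS) difference of their mean-centred relative log2 signals over the 8 arrays, among 64370 probes with a value on each. This measure takes in the difference between the groups as well as the differences between mice. For NONMMUT055566 the closest was the overlapping probe, at 0.61, followed by Slc6a3, the dopamine transporter, at 0.96, and Cyp4a32, a fatty acid hydroxylase of the cytochrome P450 family, at 1.14. Slc6a3 ran in the sham order 4, 3, 1, 2 of NONMMUT055566. Its level in DJB-1 to DJB-4 was 0.29, -0.57, 0.05 and -1.07. In Cyp4a32 the DJB mice ran 3, 4, 1, 2, at -0.08 in DJB-3 and -3.20 in DJB-2. Sham-1 and sham-2 were its lowest mice too, at -6.72 and -6.96, below the lowest detected signal of their arrays, -6.30 and -6.15. NONMMUT055566 was also undetected in both of these mice. Cyp4a32 was well above background on 2 sham arrays and Slc6a3 on 3, so the shared sham orders rest partly on undetected signal.

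For NONMMUT039923 the closest were the unnamed probe MOUSELNCRNA_19601 at 0.51, Cpvl, a carboxypeptidase, at 0.71, and Me1, the cytosolic malic enzyme that makes NADPH, at 0.77. Cpvl was well above background on only 1 sham array. MOUSELNCRNA_19601 was detected in every mouse, at 3.14, 3.90, -0.66 and 0.72 in DJB-1 to DJB-4, the same order of DJB mice as NONMMUT039923. Me1 was high in every mouse, from 0.65 to 1.42 in sham and from 4.48 to 5.75 in DJB, and its DJB mice spanned less than those of NONMMUT039923. For NONMMUT069403 the closest were MOUSELNCRNA_58215 at 0.43, the lncRNA NONMMUT058424 at 0.47 and MOUSELNCRNA_9507 at 0.53. For ENSMUST00000193223 they were MOUSELNCRNA_63723 at 0.33, MOUSELNCRNA_7303 at 0.34 and the lncRNA NONMMUT064067 at 0.36. For ENSMUST00000143291 they were MOUSELNCRNA_13598 at 0.38, MOUSELNCRNA_67088 at 0.39 and MOUSELNCRNA_80015 at 0.45. The nearest probes of NONMMUT055566 stood further off than those of the other lncRNAs.

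Among the 5 themselves, the pair closest by this measure was NONMMUT069403 and ENSMUST00000143291, with an RMS difference of 0.57, and each was the eighth closest probe of the other. NONMMUT039923 and NONMMUT055566 were the furthest apart, at 2.0.

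Of the mast cell markers considered, 1 could be tied to a probe, Mcpt2, a protease of mucosal mast cells. It read 0.16, -1.33, -1.29 and -0.51 in sham-1 to sham-4 and 5.35, 2.87, 0.29 and 2.08 in DJB-1 to DJB-4. It was higher in each DJB mouse than in any sham mouse, by 0.13 at the closest, and DJB-3 was the lowest DJB mouse, as it was for NONMMUT039923 and ENSMUST00000193223 and for 36.3% of the probes called higher. For NONMMUT055566 and ENSMUST00000143291 DJB-3 was the highest. Mcpt2 was chosen after its values were seen. Its part in the levels of the lncRNAs was not tested.

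The study lists qRT-PCR primers for 3 of the 5, NONMMUT069403, ENSMUST00000193223 and ENSMUST00000143291, and none for NONMMUT055566 and NONMMUT039923. PCR values were not analysed here. The reverse primer for NONMMUT069403 shared 19 of its 20 bases with bases 1 to 19 of the array probe, on the opposite strand, and no other probe on the array held 14 or more bases of it. PCR with that primer and the array probe therefore meet at the same bases of the transcript. The other 5 primers shared at most 7 bases with the probe of their transcript. Their places on the transcripts were not analysed, so whether an amplified stretch spans a probe is not known here.

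**Figure D5:**
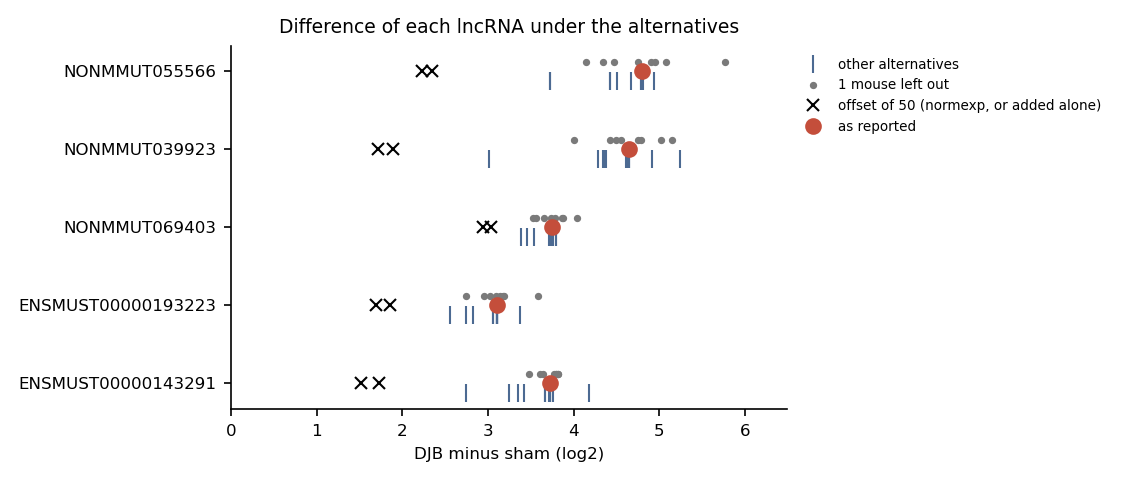
Difference between DJB and sham on the log2 scale (horizontal axis) for each of the 5 lncRNAs as reported (red), with 1 mouse left out (grey), with an offset of 50 in normexp or added alone (crosses) and under the other alternatives (blue bars). All values are above 0, and normexp with the offset gave the lowest for each, between 1.51 and 2.94.

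The differences of all 5 kept their direction under every alternative tried, but their size depended on the background correction and most on the offset that goes with it. With normexp correction and an offset of 50 added to all intensities, they were 2.23 for NONMMUT055566, 1.72 for NONMMUT039923, 2.94 for NONMMUT069403, 1.69 for ENSMUST00000193223 and 1.51 for ENSMUST00000143291. The values of 20.3-fold, 13.5-fold, 8.64-fold and 13.1-fold given above rest on the processed intensities, with neither normexp nor an offset. An offset of 50 added to the processed intensity alone gave nearly the same as normexp with it, 2.34, 1.89, 3.03, 1.85 and 1.73 in the same order of lncRNAs. Normexp without an offset gave 3.72, 3.01, 3.54, 2.55 and 2.74. Which of the 5 had the largest difference was not stable. It was NONMMUT069403 with the offset in either form, and NONMMUT039923 as a ratio of linear means (5.24) and without sham-1, sham-2, DJB-3 or DJB-4.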

How the data were processed

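Ileal RNA of 4 sham and 4 DJB mice was hybridised to 1 array each. The authors scanned and extracted the arrays with Agilent Feature Extraction (11.0.1.1 per the labels, 12.0.3.1 per the file headers), and the deposited intensity of each spot is background-subtracted and not scaled between arrays. A second deposited table holds the authors' log2 values, 1 per probe and array, and was used to name probes and as an alternative; how it was normalized is not given in the sources used here.

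Leaving out spots that carried a non-uniformity or population outlier flag, processed intensities were put on the log2 scale and averaged over the spots of a probe, and the 75th percentile of all transcript probes was subtracted per array. The 64408 probes well above background on all 4 arrays of at least 1 group, with 2 or more values in each, were fitted with limma 3.58.1 in R 4.3.3, DJB against sham, without covariates. Groups follow the labels, which give each mouse its own sample. The 75th percentile intensity was 413.1 to 439.8 on sham arrays and 341.9 to 348.5 on DJB arrays, and 71.5% to 74.6% of probes were well above background. The number of arrays limits the precision.

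The members and lists were chosen with earlier results of these data known. Named probes were the 5 lncRNAs, the other 5 of the study's list, the 3 probes closest in pattern to each and those sharing 25 or more bases, and Mcpt2 was added after its values were seen. The planned lists of cell type markers were not run, because probes could not be named beyond the 40 transcripts matched through the study's lists. The script was tested on simulated data. Alternatives covered scaling, background correction, filters, blocks, single spots and leaving out each mouse.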

Additional observations from a re-analysis of the deposited data

Results flagged for a closer look

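In ENSMUST00000143291 the DJB-3 mouse, at a relative log2 signal of -0.82, stood apart from the other DJB mice, which lay between -1.84 and -1.72. It was found by setting the gap between the highest or lowest mouse and its neighbour against the range of the group. Of the 10 groups formed by 5 lncRNAs and 2 operations this was the 1 that stood out, where chance gives 0.5.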

How the results depend on the processing

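The number of probes called higher, 830, was 399 without scaling between arrays, 333 with spike-in scaling, 357 with normexp background correction and, in settings chosen after seeing the data, 538 with normexp without an offset and 388 with an offset of 50 alone. Higher calls were 35.9% of all calls, and 10.9% and 7.62% under the first 2, which moved the median of all tested probes from 0.08 to -0.21 and -0.29. The probes called lower were 1482, and 3255 and 4037 under these, 677 with normexp and 707 with the offset alone. With 1 mouse left out 774 to 926 were called higher. Over 74 alternatives of the 5 differences, leaving out a mouse aside, 60 moved the value by less than that lncRNA's own SD between mice. The other 14 moved it by more, and 0 turned its direction. The 14 were the normexp values, 2.23, 1.72, 2.94, 1.69 and 1.51 in the order of the report, those with the offset alone, 2.34, 1.89, 3.03, 1.85 and 1.73, normexp without an offset for NONMMUT039923 (3.01) and ENSMUST00000143291 (2.74), and both spots of ENSMUST00000143291, 3.25 and 4.18. ENSMUST00000193223 has no second spot and gave no value there, and its first spot repeats its main value. The 60 are no measure of stability, because some could not move. Blocking by replicate number or array position cannot change a difference, since each block held a sham and a DJB array. Keeping outlier spots acted only through the scaling, since no spot of these lncRNAs was flagged. A large SD also hides large moves, as for NONMMUT055566 from 4.8 to 3.72 with linear means. With 1 mouse left out, the difference was 4.15 to 5.77 for NONMMUT055566, 4.01 to 5.15 for NONMMUT039923, 3.53 to 4.04 for NONMMUT069403, 2.74 to 3.58 for ENSMUST00000193223 and 3.48 to 3.82 for ENSMUST00000143291. Setting sham arrays below detection to their lowest detected signal was chosen after seeing the data and gave 4.43 for NONMMUT055566 and 4.34 for NONMMUT039923. That setting left the other lncRNAs unchanged. The replicate numbers did not pair the mice, with correlations of deviations of -0.02 to 0.01 between mice of the same number, and with a replicate block 845 probes were called higher. In sham mice signals near background limit the fold changes of NONMMUT055566, NONMMUT039923 and ENSMUST00000143291. ENSMUST00000193223 was detected in every sham mouse, but its sham spots were dim too, all below the offset of 50, and its fold change depends on that offset.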
